A study of Chlamydomonas reinhardtii with 9 samples.

Results

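The genes described here encode the enzymes that turn nitrate into glutamate in the green alga Chlamydomonas reinhardtii. They were taken as the rows of the deposited table named NIT1, NII1, GSF1, GSN1, GLN1, GLN2, GLN3 or GLN4. All 8 names were present among 17301 transcripts, each as 1 row. Of these, 4 encode enzymes that contain iron (NIT1, NII1, GSF1 and GSN1) and 4 encode glutamine synthetases (GLN1 to GLN4), which do not. Strain CC-4532 (2137) was grown in continuous light on Tris-acetate-phosphate (TAP) medium, which supplies acetate as a carbon source. Mid-logarithmic cells were spun down, washed without Fe-EDTA and put into fresh TAP medium made without it, so every group carries the same treatment and differs only in its length. RNA was sequenced at 0 h, then after 0.5, 1, 2 and 4 h, after 8 and 12 h, and after 24 and 48 h, with 2 columns of values per time that the design text calls biological duplicates, under 1 registered sample per time. Cells kept with Fe-EDTA for comparison were not sampled, so loss of iron, transfer to fresh medium and age of the culture cannot be told apart. The labels do not give the alleles of the strain at the nitrate genes.

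Nitrate assimilation is a relay through 2 compartments. Nitrate reductase, a cytosolic enzyme with heme and a molybdenum cofactor, makes nitrite. Nitrite reductase, a plastid enzyme with siroheme and an iron-sulfur cluster, makes ammonium with electrons from ferredoxin. Glutamine synthetase then joins ammonium to glutamate in an ATP-driven step that needs magnesium and no iron. Glutamate synthase, an iron-sulfur flavoenzyme, passes the amide nitrogen of glutamine to 2-oxoglutarate, and exists in a ferredoxin-dependent and an NADH-dependent form. TAP medium supplies nitrogen as ammonium, and in Chlamydomonas ammonium is known to keep the nitrate genes low while the factor NIT2 activates them on nitrate. Glutamine synthetase and glutamate synthase are in use on either nitrogen source.

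The values are RPKM (reads per kilobase, relative to the size of the library), and the libraries held 13.2 M to 33.4 M reads. At the median transcript length 3 reads were worth 0.0400 to 0.101 RPKM. Differences from 0 h were tested with limma on log2(RPKM + 1) in the 13077 genes that reached 1 RPKM at 3 or more of the 9 times. Adding 1 shrinks the differences of weak genes. A gene was called when its adjusted p was below 0.05 and its difference at least 2-fold. Its p-values reflect no more than the spread between the columns given here. RNA came from whole cultures, so a change in all cells and a change in some of them cannot be told apart. As a check of the treatment, the mean of FTR1, the iron permease of the high-affinity uptake system, went from 88.8 RPKM at 0 h to 1055 RPKM at 24 h. Of the 8 members, 6 were tested: NII1, GSF1, GSN1, GLN1, GLN2 and GLN4. NIT1 and GLN3 did not reach the minimum level.

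The enzymes with iron moved at different times and in opposite directions, and among the tested glutamine synthetases GLN1 was called higher at 24 h. NII1, for nitrite reductase, peaked at 8 h and was nearly absent at 48 h. GSF1, for the ferredoxin-dependent glutamate synthase, was highest at 2 h and below its starting level from 12 h on, with calls at 12 and 48 h. GSN1, for the NADH-dependent form, rose at 12 and 24 h, so the order of the glutamate synthases turned over between 8 and 12 h. GLN1, for the cytosolic glutamine synthetase, was highest at 24 h. It passed the adjusted p from 1 h on, or from 2 h on with columns centred on their median. GLN2 and GLN4 had their highest values at 48 h, short of a 2-fold difference.

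**Figure D1:**
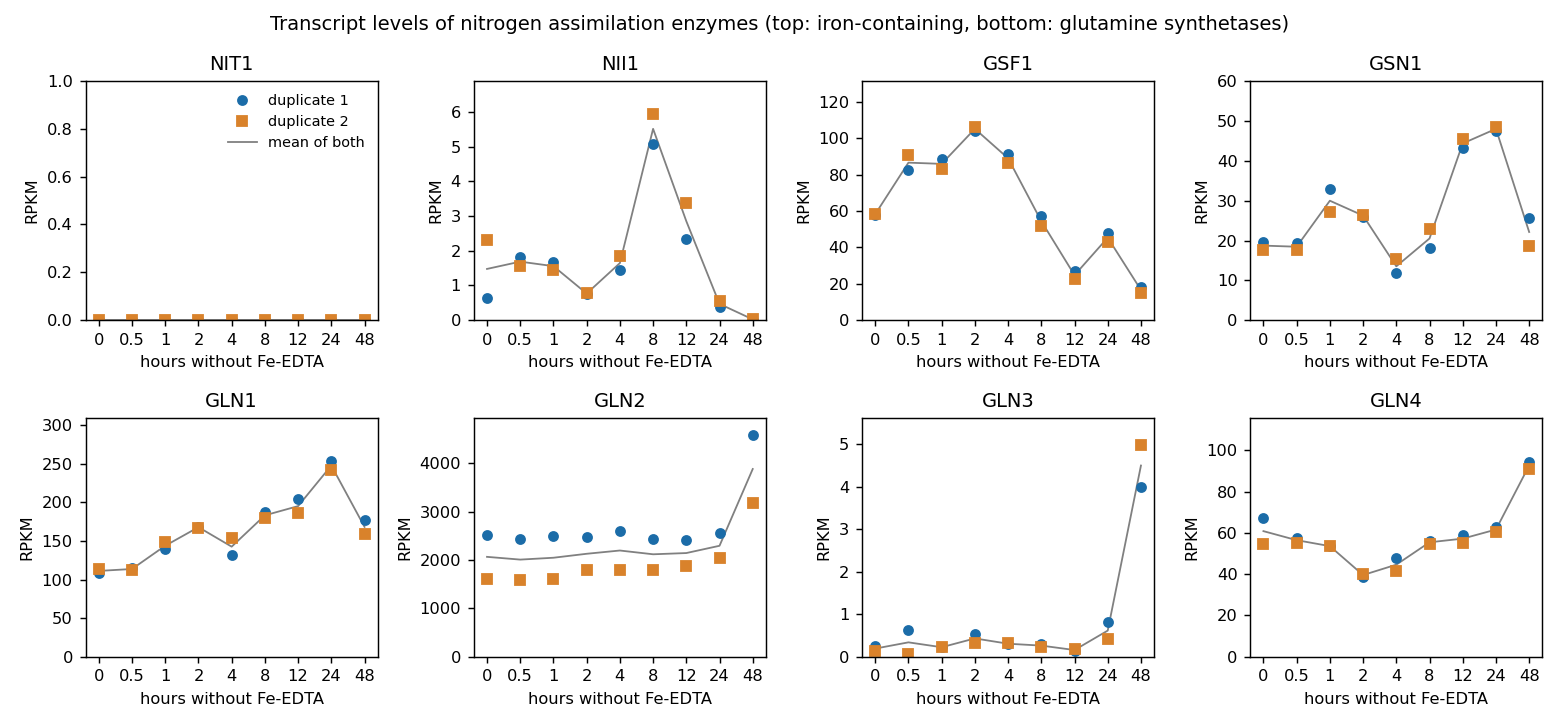
RPKM (linear axis from 0) of the 8 genes at each sampling time in hours, with enzymes that contain iron in the upper row and glutamine synthetases in the lower row. Points are the 2 duplicates and lines join their means. NII1 stands out at 8 h, GSF1 falls while GSN1 is high at 12 h, and GLN2, GLN3 and GLN4 are highest at 48 h.

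NIT1 (Cre09.g410950), for nitrate reductase, had no read in any of the 18 columns. The table lists 451 transcripts at 0 in all columns, so NIT1 is 1 of that group. Its length could not be solved from the values, so no RPKM limit can be set, and a count of 0 allows up to 3 reads per library at 95% confidence. The description deposited with the gene says that the strain used for genome sequencing carries a point mutation in NIT1. Whether the allele of CC-4532 affects the counting of reads was not tested.

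NIT1 and NII1 lie near each other in the nitrate cluster. In the gene order of RefSeq assembly Chlamydomonas_reinhardtii_v5.5, used here for neighbours only because the build of the files is not given, NII1 is followed by an unnamed gene (Cre09.g410800), NAR3, NAR2 and NIT1. NAR3 and NAR2 encode parts of the high-affinity nitrate transport system. Over all 18 columns NAR3 had 19 reads, NAR2 had 112 and the unnamed gene 56, against 2414 for NII1. None of these 3 neighbours reached the level for testing. MDH5, on the other side of NII1, was abundant, with time means of 130.7 to 249.6 RPKM. Of the 5 genes from NII1 to NIT1, NII1 alone was tested.

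NII1 (Cre09.g410750) was weak throughout. It began at 0.647 RPKM in duplicate 1 and 2.3 RPKM in duplicate 2, which rest on 39 and 239 reads. The 0.5 h pair held 1.82 and 1.55 RPKM, the 1 h pair 1.68 and 1.43, the 2 h pair 0.747 and 0.783, and the 4 h pair 1.45 and 1.83. They were 5.08 and 5.94 RPKM at 8 h and 2.32 and 3.38 at 12 h. The samples at 8 h stand above all others, and those of 12 h lie above both values at 0 h. Levels were then 0.387 and 0.544 RPKM at 24 h, and 0.0139 and 0.0274 RPKM at 48 h, where 1 and 3 reads were left. Both late times lie below every earlier value, and the groups at 8 h and 48 h do not overlap with 0 h.

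NII1 rose at 8 h, with a log2 difference from 0 h of 1.48 (SE 0.21; limma, adjusted p = 3.66e-05). It was the only member called at 8 h, where 7.36% of all genes tested were called higher and 13.9% lower. At 48 h it fell by 1.19 on the log2 scale (SE 0.21; limma, adjusted p = 1.61e-04). The pseudocount compresses this last difference. Reads alone, 4 at 48 h against 278 at 0 h, give a level 76.8-fold lower, with an interval of 29.7 to 284 at 95% confidence. The same ratio at 8 h is 3.27 (2.85 to 3.75). These intervals cover counting error only, and the duplicates at 0 h differed by 3.56-fold. Without duplicate 2 at 0 h, the difference at 48 h was -0.74 and no longer 2-fold. Between neighbouring times NII1 rose by 1.3 from 4 to 8 h (limma, adjusted p = 3.06e-04), a step in which 1.67% of all genes were called higher. It fell by 1.38 from 12 to 24 h (limma, adjusted p = 7.88e-05), where 2.24% were called lower. With columns centred on their median these steps were 1.35 and -1.87.

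GSF1 (Cre12.g514050) was the more abundant glutamate synthase at the start. Its duplicates started at 57.9 and 58.5 RPKM. The 0.5 h pair held 82.4 and 90.8 RPKM, the 1 h pair 88.5 and 83.3, the 2 h pair 104.1 and 106.2, and the 4 h pair 91.3 and 86.6. Every value from 0.5 to 4 h lies above both values at 0 h. The 8 h pair held 57.0 and 51.7 RPKM, the 12 h pair 27.0 and 22.4, the 24 h pair 47.9 and 42.7, and the 48 h pair 18.4 and 14.8. The path down was not steady, since both values at 24 h lie above both at 12 h.

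The early excess of GSF1 passed the adjusted p but stayed short of 2-fold, with its largest log2 difference of 0.84 at 2 h (SE 0.10; limma, adjusted p = 1.45e-05). Across all genes tested, 36.3% were higher and 27.9% lower at 2 h by the adjusted p alone. GSF1 fell by 1.21 at 12 h (SE 0.10; limma, adjusted p = 2.72e-07) and by 1.76 at 48 h (SE 0.10; limma, adjusted p = 6.41e-09). It was the 1 member called lower at 12 h, where 18% of genes were called lower and 10.1% higher. At 48 h it was called with NII1, beside 15.8% of genes lower and 18.4% higher. The step from 8 to 12 h was a fall by 1.11 (limma, adjusted p = 8.80e-06), when 2.60% of genes were called lower. The step from 24 to 48 h was a fall by 1.4 (limma, adjusted p = 9.46e-08), when 16.1% of genes were called lower. Between them, the recovery from 12 to 24 h was 0.85 (limma, adjusted p = 1.28e-05), short of 2-fold. It was 0.36 with columns centred on their median (limma, adjusted p = 0.00909), since the median of all genes went from -0.14 to 0.29 relative to 0 h. At 24 h GSF1 still differed from 0 h by -0.36 (SE 0.10; limma, adjusted p = 0.00822), or by -0.68 with centred columns.

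GSN1 (Cre13.g592200) was the weaker glutamate synthase at the start. It started at 19.8 and 17.7 RPKM, and the 0.5 h pair held 19.3 and 17.6, the 1 h pair 32.9 and 27.1, and the 2 h pair 26.0 and 26.5. A short excess at 1 and 2 h thus stands above 0 h in both duplicates. The 4 h pair held 11.7 and 15.3 RPKM, the 8 h pair 18.1 and 22.9, the 12 h pair 43.2 and 45.6, the 24 h pair 47.6 and 48.5, and the 48 h pair 25.8 and 18.5. The samples at 12 and 24 h are the highest of all, and those at 4 h the lowest.

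GSN1 rose by a log2 difference of 1.2 at 12 h (SE 0.16; limma, adjusted p = 1.93e-05) and 1.32 at 24 h (SE 0.16; limma, adjusted p = 1.21e-05). At 24 h it was called higher together with GLN1, where 14.8% of genes were called higher and 6.39% lower. The median of all genes was 0.29 above 0 h at that time, and with columns centred on their median the difference of GSN1 was 0.99, just short of 2-fold. Its rise at 12 h was 1.37 with that centring. In the step from 8 to 12 h GSN1 rose by 1.09 (limma, adjusted p = 3.33e-04), beside 0.933% of genes called higher. From 24 to 48 h it fell by 1.1 (limma, adjusted p = 5.17e-05), or by 0.95 with centred columns, which is short of 2-fold.

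The ratio of GSF1 to GSN1 in RPKM brings the movements of both glutamate synthases together. It was 2.93 in duplicate 1 and 3.31 in duplicate 2 at 0 h, and 7.79 and 5.66 at 4 h. At 8 h it was 3.15 and 2.26, close to the start. At 12 h it was 0.626 and 0.491, at 24 h 1.01 and 0.880, and at 48 h 0.713 and 0.798. All 12 columns up to 8 h lie above every column from 12 h on, so that transcripts of the NADH-dependent form were level with or above those of the ferredoxin-dependent form in the last 3 samplings. A ratio within a library does not depend on the scaling between libraries, but it does depend on the transcript lengths behind the RPKM. It is given as a description with no test of its own. Over the 9 time means the log2 levels of GSF1 and GSN1 correlated at -0.37.

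**Figure D2:**
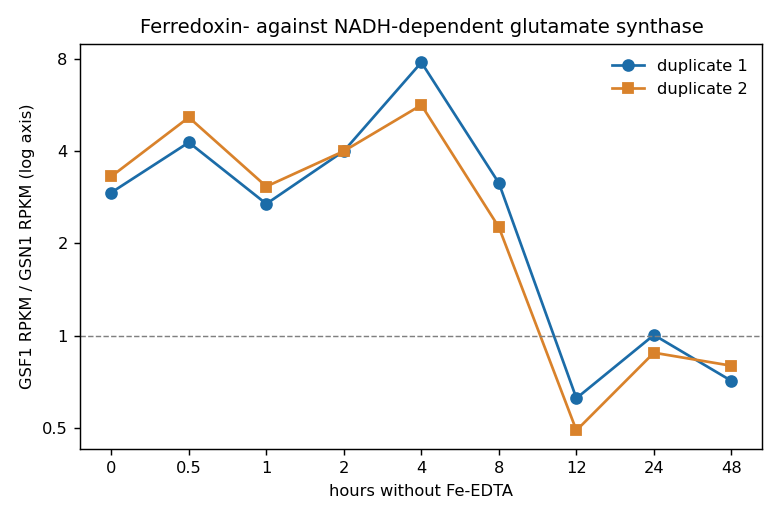
Ratio of GSF1 to GSN1 RPKM (log axis) at each sampling time in hours, for each duplicate. The dashed line marks equal RPKM. Both duplicates are above 2 up to 8 h and at or below about 1 from 12 h on, with 0.626 and 0.491 at 12 h.

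GLN1 (Cre02.g113200) encodes the cytosolic glutamine synthetase. It started at 109 and 113 RPKM. Values were then 115.5 and 112 in the 0.5 h pair, 139.7 and 148 in the 1 h pair, 168.5 and 167.5 in the 2 h pair, and 132 and 154 in the 4 h pair. They were 187 and 179.6 RPKM in the 8 h pair, 205 and 186 in the 12 h pair, 253 and 242 in the 24 h pair, and 177.5 and 159 in the 48 h pair. Every column from 1 h on lies above both columns at 0 h, and those at 24 h are the highest.

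GLN1 rose at 24 h, with a log2 difference of 1.15 (SE 0.09; limma, adjusted p = 3.05e-07). With columns centred on their median the difference was 0.82, so the 2-fold call rests on the scaling while the direction does not. At the other times from 1 to 48 h GLN1 passed the adjusted p with differences of 0.35 to 0.80, short of 2-fold. With centred columns the difference at 1 h was 0.20 and no longer passed (limma, adjusted p = 0.0735). GLN1 was the only glutamine synthetase called at any time among the 3 tested.

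GLN2 (Cre12.g530650) encodes the chloroplast glutamine synthetase and held the highest RPKM of the set. Duplicate 1 stayed between 2421 and 2598 RPKM from 0 to 24 h and reached 4579 RPKM at 48 h. Duplicate 2 began at 1609 RPKM, had its lowest value of 1593 at 0.5 h, and held 2042 RPKM after 24 h and 3191 RPKM in the last sample. Duplicate 1 was the higher at 9 of 9 times, by 0.50 on the log2 scale on average, and 663 of the 13077 genes tested (5.07%) had duplicates at least this far apart. Within each duplicate, the sample at 48 h stands above all others.

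The log2 difference of GLN2 from 0 h was between -0.04 and 0.18 from 0.5 to 24 h. At 48 h it was 0.92 (SE 0.08; limma, adjusted p = 3.64e-07), and 0.75 with columns centred on their median. With a column left out it ranged from 0.84 to 1.00, the latter without duplicate 1 at 0 h. GLN2 made up 93.5% and 90.5% of the summed RPKM of the 4 glutamine synthetases at 0 h. That share rests on the length behind its RPKM, which the values put at 589 bases, against 2350 for GLN1 and 3072 for GLN4. By reads, which do not use a length, it was 76.3% and 68.6%. Reads of all 4 genes together were 19.5 and 13.8 per 10000 of the library at 0 h and 34.1 and 25.4 at 48 h.

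GLN3 (Cre12.g530600), a plastid form, lies head to head with GLN2 and is described in the deposited table as almost identical to it. Reads that match both could have been given to either gene, so single values of GLN2 and GLN3 are uncertain. GLN3 held 0.0553 to 0.818 RPKM in the 16 columns from 0 to 24 h, and 4.01 and 4.99 RPKM at 48 h. Both columns at 48 h lie far above all others. GLN3 reached 1 RPKM at 48 h alone, so it was not tested. In a fit without the minimum its log2 difference at 48 h was 2.2 (SE 0.16; limma, adjusted p = 2.10e-07). Its reads went from 12 at 0 h to 340 at 48 h, a ratio of 25.6 after scaling to library size (14.5 to 50.1 at 95%, counting error only). Reads of GLN3 were 0.0219% and 0.0200% of those of GLN2 at 0 h and 0.198% and 0.355% at 48 h. As counted, the reads of GLN3 were a small addition to those of GLN2 at each of these times. How the reads were divided between the 2 genes was not tested, so the true share of GLN3 is not known.

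GLN4 (Cre03.g207250) encodes a putative glutamine synthetase with no predicted organelle targeting. Its duplicates were at 67.1 and 54.6 RPKM at 0 h and at 38.9 and 40.3 RPKM at 2 h, its lowest point. They were 62.9 and 60.4 RPKM at 24 h and 94.5 and 90.7 RPKM at 48 h. The values at 2 h lie below, and those at 48 h above, every value at 0 h. None of its differences reached 2-fold. The log2 difference was -0.60 at 2 h (SE 0.09; limma, adjusted p = 7.85e-05) and 0.61 at 48 h (SE 0.09; limma, adjusted p = 4.07e-05). At 24 h it was 0.03, and -0.30 with columns centred on their median. The same centring gave 0.43 at 48 h.

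**Figure D3:**
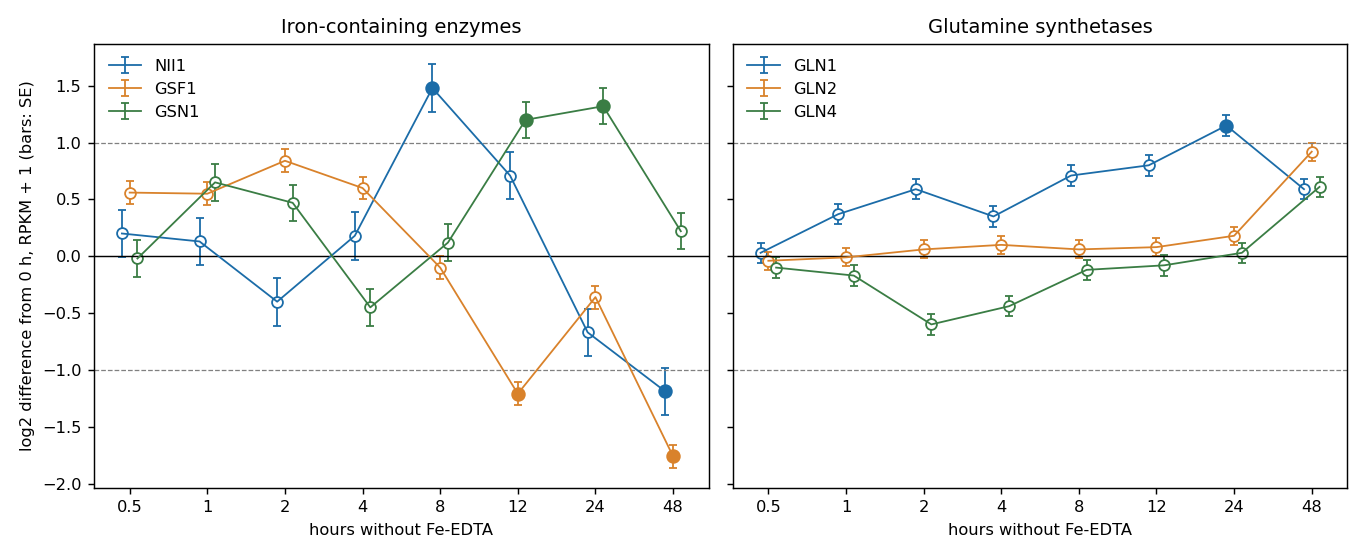
Fitted log2 difference from 0 h of log2(RPKM + 1) at each later time in hours, with SE bars, for the 6 genes tested. Filled points were called, with an adjusted p under 0.05 and 2-fold or more, and dashed lines mark 2-fold. The 3 iron-containing enzymes hold 6 of the 7 filled points, and GLN1 at 24 h is the other one. At these times, from 8 to 48 h, 7.36% to 18.4% of all genes tested were called higher and 6.39% to 18% lower. With 3 genes per class the counts are near those shares.

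Set side by side, the 3 tested iron-containing enzymes gave 3 higher and 3 lower calls in 24 tests over the 8 later times, and the 3 tested glutamine synthetases gave 1 higher and 0 lower in 24. Over all genes tested the shares called higher and lower were 5.64% and 3.48% in the 0.5 h comparison and 8.38% and 4.95% in that of 1 h. They were 9.44% and 7.18% in that of 2 h and 5.99% and 11.8% in that of 4 h, with the later shares given above. At 48 h all 3 tested glutamine synthetases were higher by the adjusted p alone, beside 43.6% of all genes. At the same time 2 of the 3 iron-containing enzymes were lower, beside 33.2% of all genes, and GSN1 differed by 0.22 (SE 0.16; limma, adjusted p = 0.244). The median log2 difference at 48 h was -1.19 for the iron-containing enzymes and 0.61 for the glutamine synthetases, against 0.14 for all genes tested. With 3 genes each, these medians are the values of NII1, which had 4 reads at 48 h, and of GLN4. The difference between these classes was not tested, and with 3 genes each their counts are near what the shares of all genes would give. Over the time means the highest level was 6.35 times the lowest for GSF1 and 3.56 times for GSN1, and 1.93 to 2.34 times for GLN1, GLN2 and GLN4. The weak genes had wider ranges, at 267 times for NII1 and 28.3 times for GLN3, so the classes overlap in this measure.

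Across the 9 time means GLN2 and GLN4 correlated at 0.77 on the log2 scale, and GLN1 and GSN1 at 0.73. GSF1 ran against GLN4 at -0.83 and against GLN2 at -0.74. GLN2 stayed within -0.04 to 0.18 of 0 h up to 24 h, so its correlations lean on the 48 h mean. At 2 h GLN4 had its low of -0.60, where GLN2 was at 0.06. These correlations describe 9 means that share their libraries. Among 2411 named genes with a range of at least 2-fold, the profile most like that of GSF1 was CGL71 at 0.994, a gene described only as a predicted protein. It was followed by CMS at 0.990, an enzyme of plastid isoprenoid synthesis, and DLA2 at 0.989, a dihydrolipoamide acetyltransferase. For GSN1 the nearest profiles were GND1b at 0.898, a 6-phosphogluconate dehydrogenase, then MFT4, a MATE efflux protein, and GSTS2, a glutathione S-transferase, both at 0.838. NII1 was nearest to EFT2 at 0.927, an elongation factor Ts-like protein, then PGI1 at 0.896, phosphoglucose isomerase, and SSS1 at 0.886, a soluble starch synthase.

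Among the glutamine synthetases, GLN1 was nearest to ELG17 at 0.964, PDE24 at 0.947 and PTK10 at 0.943, which reached at most 5.22 RPKM. GLN2 was nearest to CYP744A4 at 0.978, CPLD15 at 0.977 and KIR2 at 0.976. GLN4 was nearest to PTOX1 at 0.967, described as an alternative oxidase and reaching 321 RPKM, then VPE1 at 0.960, a vacuolar processing enzyme, and NAH1 at 0.959, a cation antiporter. With 9 points such likeness is a description of shape.

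The wider set of genes for nitrogen supply and use was given by a list of 97 symbols, of which 47 were in the table and 36 were tested. At 0.5 h 1 of the 36 was called higher and 3 lower, beside 5.64% and 3.48% of all genes. At 12 h the counts were 5 and 5, beside 10.1% and 18%. At 48 h 7 were higher and 13 lower, beside 18.4% and 15.8%. The list had a median log2 difference of 0.27 at 0.5 h, 0.56 at 2 h and -0.03 at 48 h, against 0.14, 0.07 and 0.14 for all genes. At 2 h, 4 were called higher and 4 lower, beside 9.44% and 7.18% of all genes. At 48 h the lower calls were the more numerous, and the parts of the list differed in direction.

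**Figure D4:**
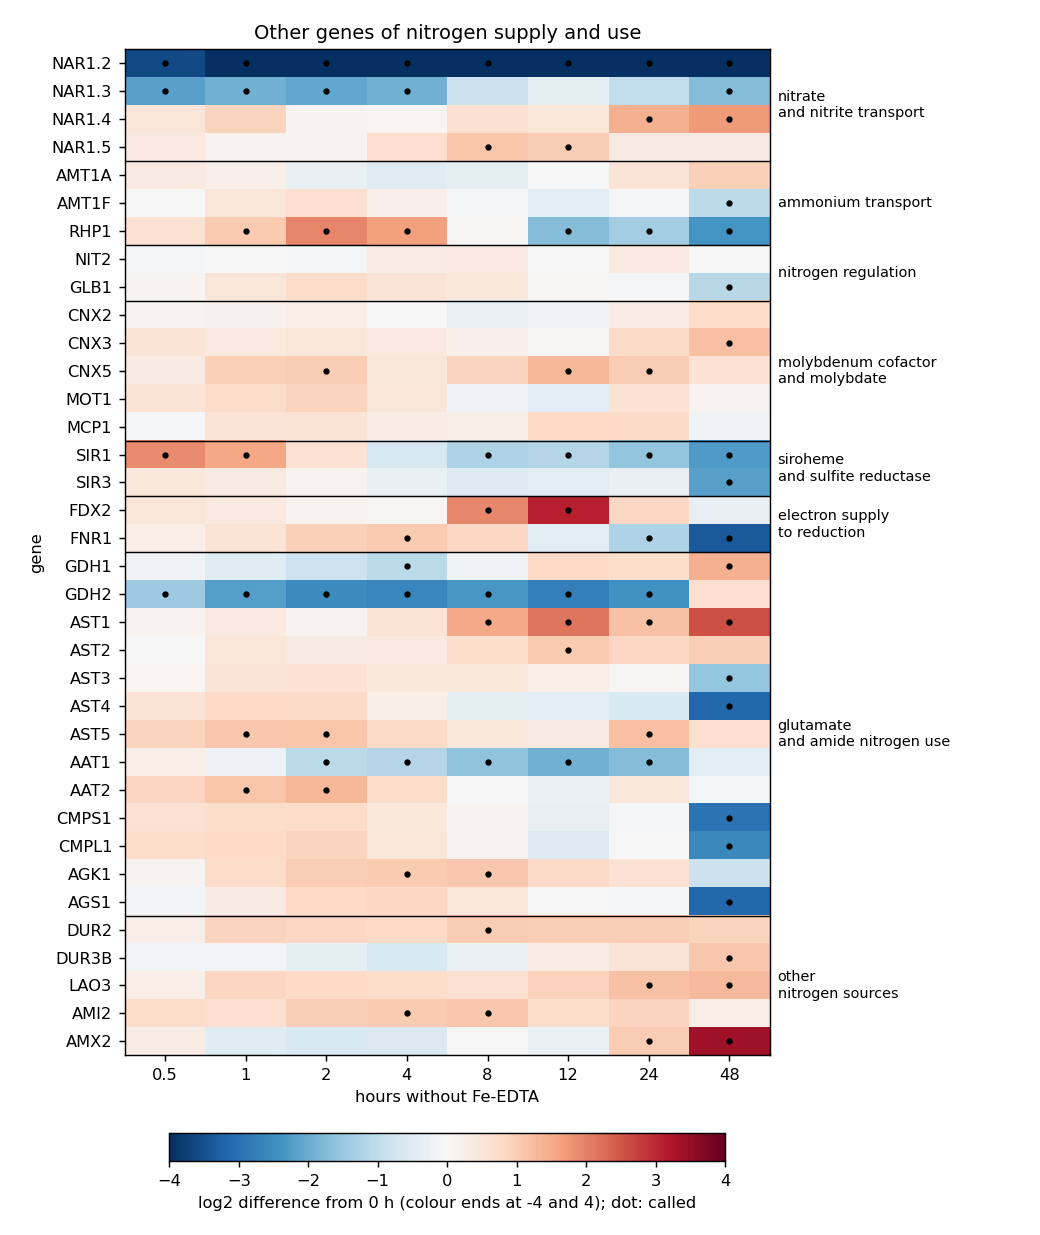
Fitted log2 difference from 0 h at each later time in hours for the 36 tested genes of the nitrogen list, grouped by role, with colour from blue (lower) to red (higher) and a dot on each call. MOT1, shown with the molybdenum cofactor genes, is described in the deposited table as a cilia protein. NAR1.2 is blue at all times, 13 genes carry a dot on blue at 48 h, among them SIR1, FNR1, AST4 and AGS1, and AMX2 is deep red there.

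Of the 4 tested genes of nitrate and nitrite transport, NAR1.3, a formate and nitrite transporter, fell by 2.16 at 0.5 h (SE 0.21; limma, adjusted p = 6.0e-06), with time means of 46.3 RPKM at 0 h and 9.52 RPKM at 0.5 h. Its relative NAR1.4 rose by 1.70 at 48 h (SE 0.11; limma, adjusted p = 1.9e-08), from 9.26 to 32.4 RPKM. NAR1.2, described as a possible chloroplast anion transporter, fell by 3.61 at 0.5 h (SE 0.60; limma, adjusted p = 2.5e-04) and was lower at all 8 later times. Its difference was -8.65 at 24 h and -8.61 at 48 h (limma, adjusted p = 2.6e-08), where the time mean was 0.400 RPKM against 540.3 at 0 h, the largest change in the list. Neighbours in name thus went in opposite directions.

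Among the 3 tested genes of ammonium transport, AMT1A had no call. Its log2 difference at 48 h was 0.94 (SE 0.10; limma, adjusted p = 1.9e-06), from 7.51 to 15.3 RPKM. That is just short of 2-fold once the pseudocount is added. AMT1F fell by 1.05 at 48 h (SE 0.11; limma, adjusted p = 1.8e-06), from 2.13 RPKM at 0 h to 0.501 RPKM. RHP1, a Rh protein described as responsive to CO2, rose by 1.96 at 2 h (SE 0.16; limma, adjusted p = 4.6e-07) and fell by 2.38 at 48 h (SE 0.16; limma, adjusted p = 1.8e-08). Its time mean went from 6.21 RPKM to 27.0 RPKM at 2 h and was 0.386 RPKM in the last sampling.

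Of the regulators, NIT2, the activator of the nitrate genes, had time means of 0.650 to 1.3 RPKM and no call at any time. It was higher by the adjusted p alone at 8 h, by 0.38 (SE 0.14; limma, adjusted p = 0.025). The same held at 24 h, with 0.4 (SE 0.14; limma, adjusted p = 0.017). At so low a level the pseudocount compresses differences, so the lack of a call cannot show that NIT2 was unchanged. GLB1, the PII protein that senses nitrogen and carbon status, fell by 1.1 at 48 h (SE 0.09; limma, adjusted p = 1.8e-07), from 17.6 to 7.68 RPKM. In the molybdenum cofactor group, CNX3, of the first step of cofactor synthesis, rose by 1.19 at 48 h (SE 0.22; limma, adjusted p = 2.4e-04). CNX5, described as a cofactor sulfurase family protein, rose by 1.34 at 12 h (SE 0.12; limma, adjusted p = 5.2e-07). The symbols MOT1 and MOT2, listed as molybdate transporters, belong in this table to proteins linked to motile cilia. MOT1 was tested and had no call, and MOT2 was not tested.

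Genes of sulfite reductases and of electron supply to reduction were called at several times. SIR1, for the ferredoxin-dependent sulfite reductase, a siroheme enzyme like nitrite reductase, rose by 1.89 at 0.5 h (SE 0.37; limma, adjusted p = 7.7e-04). It fell by 2.27 at 48 h (SE 0.37; limma, adjusted p = 7.4e-05). Its time mean went from 46.0 to 175.3 RPKM within 0.5 h and was 8.45 RPKM in the last sampling. SIR3, a flavoprotein subunit of a bacterial type of sulfite reductase, fell by 2.17 at 48 h (SE 0.11; limma, adjusted p = 1.3e-09). FDX2, a ferredoxin, rose by 1.93 at 8 h (SE 0.17; limma, adjusted p = 5.6e-07) and by 3.11 at 12 h (SE 0.17; limma, adjusted p = 4.9e-09). The time mean of FDX2 began at 1.76 RPKM, was 9.77 at 8 h and 23.0 at 12 h, and ended at 1.19 RPKM. NII1 and FDX2 were both called higher at 8 h, as were 7.36% of all genes tested. They parted at 12 h, where FDX2 was highest and NII1, at 0.71, was not called. FNR1, for the ferredoxin-NADP reductase, was highest at 4 h with 1095 RPKM and fell by 3.36 at 48 h (SE 0.08; limma, adjusted p = 2.4e-12).

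Among the 13 tested genes that use glutamate and amide nitrogen, 2 were higher and 5 lower at 48 h, beside 18.4% and 15.8% of all genes. AST4, an aspartate aminotransferase, fell by 3.13 (SE 0.13; limma, adjusted p = 3.1e-10). CMPS1, for the small subunit of carbamoyl phosphate synthase, fell by 2.96 (SE 0.12; limma, adjusted p = 1.7e-10). AGS1, an argininosuccinate synthase of arginine synthesis, fell by 3.13 (SE 0.11; limma, adjusted p = 6.3e-11), from 105.7 to 11.3 RPKM. Each of these 3 was called at 48 h alone.

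Of the 5 tested genes for other nitrogen sources, 3 were higher and none lower at 48 h, beside the same shares of all genes. AMX2, a copper amine oxidase, rose by 3.39 (SE 0.19; limma, adjusted p = 4.7e-09), from 6.78 to 80.5 RPKM. LAO3, similar to the L-amino-acid oxidase that releases ammonium from amino acids, rose by 1.29 (SE 0.11; limma, adjusted p = 1.5e-07), from 1.77 to 5.77 RPKM. DUR3B, a urea transporter, rose by 1.09 (SE 0.12; limma, adjusted p = 1.7e-06), from 5.44 to 12.7 RPKM.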

How the data were processed

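Per the submitters' processing notes, Bowtie was used on reads of total RNA. Its version, and the build, counter and filters used, were not given in the sources used here. The authors deposited RPKM in 18 columns, 2 for each of 9 times. The header names no unit, and RPKM was read from the values. No column of values was left unused. Reads and transcript lengths were recovered from the low values for 16839 transcripts (97.3%, median length 2245 bases, whole within 0.005 reads), and their sums matched the library totals.

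Differences were fitted with limma 3.58.1 in R 4.3.3 (trended prior variance) on log2(RPKM + 1) over all 18 columns, with a term for each time and a block for the duplicate number, leaving 8 residual degrees of freedom. Adjusted p-values are Benjamini-Hochberg over 13077 genes per comparison. The fit was also run on simulated data whose columns varied independently, which cannot speak to duplicates that deviate together. The duplicate numbers come from the column names. Over 36 pairs of times, same-numbered columns deviated together across genes, with correlations of 0.315 to 0.726. Ratios of reads have exact binomial intervals.

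The members, the nitrogen list and the tests were chosen with earlier results of these data known. Named genes are all members, the 3 tested genes of each list part with the largest difference from 0 h, and the 3 named genes most like each member with a mean of at least 1 RPKM. Other pseudocounts (0.1, 0.5 and 5), filters, centring, no block, pairs of times alone, leaving out columns and voom on recovered reads were tried.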

Additional observations from a re-analysis of the deposited data

How the results depend on the processing

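Calls of iron-containing enzymes ranged from 2 to 4 higher and 2 to 4 lower, against 3 and 3 as reported. The glutamine synthetases had 1 higher call as reported, 2 without the filter on low values (GLN1 and GLN3), 0 with centred columns, and 1 to 2 with a column left out, the second being GLN2 at 48 h (1.00) without duplicate 1 at 0 h. They had 0 lower calls in the reported fit and in every alternative run. Of the 6 calls between neighbouring times, which belong to NII1, GSF1 and GSN1, 2 were left with a pseudocount of 5. The losses were not confined to the weak gene NII1, so steps of GSF1 or GSN1 also fell short of a call. Without the duplicate block the counts were unchanged, at 3 and 3 for the iron-containing enzymes, 1 and 0 for the glutamine synthetases, 7 for all members against 0 h, 6 between neighbouring times and 80 for the nitrogen list. Among 48 differences of members from 0 h, recomputed under 28 alternatives, 1297 of 1336 values kept their direction and their side of the threshold, 28 changed sign, 5 lost a call and 6 gained one. None of the sign changes was in a called difference. With centred columns GLN4 went from 0.03 to -0.30 at 24 h, from -0.12 to 0.05 at 8 h and from -0.08 to 0.08 at 12 h, NII1 from 0.13 to -0.04 at 1 h, GSF1 from -0.10 to 0.08 at 8 h and GLN1 from 0.03 to -0.10 at 0.5 h, and GLN2 from 0.06 to -0.01 at 2 h and from 0.18 to -0.15 at 24 h. With a column left out NII1 ranged from -0.26 to 0.66 at 0.5 h, -0.33 to 0.59 at 1 h, -0.86 to 0.06 at 2 h and -0.28 to 0.63 at 4 h, so its direction there rests on the duplicates at 0 h. GSN1 ranged from -0.09 to 0.05 at 0.5 h, -0.07 to 0.31 at 8 h and -0.03 to 0.46 at 48 h, and GLN1 from -0.00 to 0.07 at 0.5 h. GLN2 ranged from -0.12 to 0.05 at 0.5 h, -0.09 to 0.07 at 1 h, -0.02 to 0.14 at 2 h, -0.03 to 0.14 at 8 h and -0.00 to 0.16 at 12 h. GLN4 ranged from -0.22 to 0.02 at 0.5 h, -0.20 to 0.04 at 12 h and -0.09 to 0.14 at 24 h. The calls of GSN1 and GLN1 at 24 h were lost with centred columns, as given above. The other changes of a call against 0 h, besides GLN2 at 48 h, were in NII1, which is weak and has unequal duplicates at 0 h. A pseudocount of 5 gave 0.71 at 8 h and -0.35 at 48 h, so both calls were lost. New calls appeared at 12 h, with 1.12 at a pseudocount of 0.1 and 1.17 without duplicate 2 at 0 h. They also appeared at 24 h, with -1.26 at a pseudocount of 0.1, -1.13 without duplicate 1 at 0 h and -1.62 with voom on recovered reads, an alternative chosen after seeing the data.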

Other observations

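The glutamate dehydrogenases, which make or break down glutamate without passing through glutamine, fell outside the rule for named genes and were chosen after their values were seen. GDH2 fell by 1.45 on the log2 scale at 0.5 h (SE 0.24; limma, adjusted p = 2.7e-04) and was called lower at all 7 times from 0.5 to 24 h. Its time mean began at 298 RPKM and was 109 after 0.5 h and 43.7 after 12 h. At 48 h it stood at 491 RPKM, a log2 difference of 0.68 from 0 h (SE 0.24; limma, adjusted p = 0.021), short of 2-fold. GDH1 fell by 1.09 at 4 h (SE 0.12; limma, adjusted p = 4.8e-06) and rose by 1.42 at 48 h (SE 0.12; limma, adjusted p = 1.5e-07), from 14.4 to 40.3 RPKM. The highest time mean of both genes was at 48 h, as it was for GLN2, GLN3 and GLN4. At that time 43.6% of all genes tested were higher than at 0 h by the adjusted p alone, and 33.2% lower. How many of all genes had their highest time mean at 48 h was not counted.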
